A study of Mus musculus with 28 samples.

Results

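The 9 granulocyte granule and alarmin genes (S100a8, S100a9, Lcn2, Camp, Ngp, Ltf, Elane, Mpo and Csf3r) were followed in cultured mouse lymphomas after treatment with ADR (Adriamycin, also known as doxorubicin) and without it. The 9 genes, out of 18194 genes measured, were chosen by name for what they are known to do, and each was read from its brightest probe set. Each of them had 1 probe set on the array. The levels are deposited log2 expression values, on which a difference of 1 is a doubling.

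Granulocyte precursors store proteases and peroxidase in azurophil granules and later add antimicrobial and iron-binding proteins in specific and gelatinase granules. The alarmins S100a8 and S100a9 bind each other in the calprotectin complex, which neutrophils hold in their cytosol and release during inflammation. Macrophages and epithelia can also make S100a8 and Lcn2 when inflamed, so neither gene marks neutrophils by itself, while Elane, Mpo and Ngp are made mainly by developing granulocytes.

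The study compared ADR-treated with untreated cultures of 14 primary lymphomas, with 1 array per culture and 28 arrays in all. ADR was given at 0.05 µg/ml for 5 days in vitro, and the partner culture of the same lymphoma was left untreated. Both groups came from lymph nodes of Emu-myc transgenic C57BL/6 mice, in which an immunoglobulin heavy chain enhancer drives Myc in B-lineage cells. Both groups also carried Bcl2 from an MSCVpuro retrovirus, had been selected with puromycin, and had been grown on irradiated NIH 3T3 fibroblasts. The labels name no step that parted lymphoma cells from feeder cells or from other lymph node cells before RNA was taken, so the values are those of the whole culture. In such bulk samples, more cells of a type and more RNA per cell cannot be told apart. The labels describe 11 lymphomas as reanalysed from an earlier series, and the other 3 (5043, 9583 and 9584) carry no such remark.

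Some features of the arrays bear on the values. The median over genes was 0.0985 log2 units higher in ADR than in untreated arrays, so changes of that size depend on the scaling. The ADR array of lymphoma 1570 stood apart in its Gapdh probe sets, with a 3' minus 5' difference of 0.92, where the next highest array had 0.38. In lymphoma 9584 the Y-linked gene Eif2s3y read 8.61 in the ADR and 4.74 in the untreated array, while Kdm5d (7.20 and 7.17) and Xist (5.17 and 5.57) were close in the 2 arrays. In lymphoma 7050 Kdm5d read 3.96 in the ADR and 5.21 in the untreated array, Eif2s3y 4.23 and 2.94, and Xist 11.33 and 11.05. The 2 arrays of 7050 were each other's best match in the pairing described under processing. Fibroblast markers rose with ADR, by a median of 2.05 over 11 measured genes, with 10 higher and 0 lower. Macrophage markers rose by a median of 1.48 over 11 measured genes, with 7 higher and 0 lower. Of all genes, 15.3% were called higher and 13.4% lower.

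Lcn2 and S100a8 rose after ADR in all 14 lymphomas, by 6.64-fold and 4.24-fold on average. S100a9, the partner of S100a8, stayed at the low end of the scale in both groups. The granule genes Ngp, Ltf, Elane and Mpo were low and did not pass the test, and Camp rose by 1.15-fold from a low level. Csf3r, the receptor for granulocyte colony-stimulating factor, was higher in 11 of 14 lymphomas and did not pass the test. In all, 3 of the 9 genes were called higher (Lcn2, S100a8 and Camp), where 15.3% of all genes were called higher, and 0 were called lower, where 13.4% of all genes were. Calls are at an adjusted p under 0.05 in limma with lymphoma as a block, adjusted over all 18194 genes. Lcn2 and S100a8 were higher in every lymphoma, a pattern found in 2.87% of all genes. The median change of the 9 genes was 0.04, and that of all genes was -0.0011.

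The promoters of the 2 genes that rose most and of S100a9 are shown. S100a8 and S100a9 lie on the same chromosome and encode partner proteins, yet their probe sets differed in level and change. The S100a9 probe set read low in all 28 arrays, so whether the transcripts differ in the same way was not tested. Each sequence runs from 250 bases before to 50 bases after the gene's start in RefSeq annotation of GRCm38.p6, read 5′ to 3′ on the gene's strand. Capitals mark matches, on either strand, to an NF-kB motif (GGG, then any 5 bases, then CC) or to a C/EBP motif (TTNNGNAA, where N is any base). Matches that overlap are joined in 1 run of capitals.
S100a8 (chr3:90668821-90669120, plus strand): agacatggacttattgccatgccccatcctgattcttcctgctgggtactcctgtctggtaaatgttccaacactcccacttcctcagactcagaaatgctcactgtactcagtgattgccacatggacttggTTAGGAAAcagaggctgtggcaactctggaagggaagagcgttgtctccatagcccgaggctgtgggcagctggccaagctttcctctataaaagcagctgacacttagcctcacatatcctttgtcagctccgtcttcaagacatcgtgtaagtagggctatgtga
S100a9 (chr3:90695672-90695971, minus strand): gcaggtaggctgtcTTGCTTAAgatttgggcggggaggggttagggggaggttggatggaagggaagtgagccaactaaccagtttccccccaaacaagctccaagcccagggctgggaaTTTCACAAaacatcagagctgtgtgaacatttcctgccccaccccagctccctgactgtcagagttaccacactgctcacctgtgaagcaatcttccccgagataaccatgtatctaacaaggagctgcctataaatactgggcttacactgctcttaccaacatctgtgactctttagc
Lcn2 (chr2:32387690-32387989, minus strand): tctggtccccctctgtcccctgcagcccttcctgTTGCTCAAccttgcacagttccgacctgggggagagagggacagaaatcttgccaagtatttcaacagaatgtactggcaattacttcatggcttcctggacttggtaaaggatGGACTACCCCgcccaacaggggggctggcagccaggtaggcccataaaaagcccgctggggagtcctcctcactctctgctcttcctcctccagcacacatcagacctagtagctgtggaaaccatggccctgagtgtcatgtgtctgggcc

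The Lcn2 window held 1 match to the NF-kB letters, which begins at -102 counted from the gene's start, and 1 to the C/EBP letters at -216. The S100a8 window held 1 C/EBP match at -117 and the S100a9 window held 2, at -236 and -130. Neither S100 window held the NF-kB letters. The windows of other genes of the 9 held these letters too, counting overlapping matches and both strands separately. Ltf had 4 NF-kB and 2 C/EBP matches, Ngp 3 C/EBP matches, and Elane neither motif. Csf3r had 4, Camp 3 and Mpo 1 NF-kB matches. Whether any match acts in these cultures was not tested. These letters are common: 50.8% of 32851 RefSeq promoters of the same length held the NF-kB letters and 40.7% held the C/EBP letters. Another pattern, TGANTCA (AP-1), was present in 7.81% of promoters and in none of the 9 genes' windows.

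Lcn2 encodes lipocalin 2, which binds the iron-carrying siderophores of bacteria and is stored in specific granules of neutrophils. Its level was 6.75 at the lowest, 10.34 at the median and 12.63 at the highest in ADR cultures, against 4.69, 7.22 and 10.29 in untreated cultures. The ranges overlapped, but 7 of the 14 ADR cultures lay above every untreated culture. The highest ADR level was that of lymphoma 5560 and the lowest that of 1570, which also had the lowest untreated level. Lcn2 averaged 10.20 ± 1.74 in ADR and 7.47 ± 1.88 in untreated cultures (SD, n = 14 each). The change was 2.73 ± 0.28 (SE), with an adjusted p of 6.18e-06 in limma and an exact sign-flip p of 1.22e-04, the smallest that 14 pairs can give. Its 95% interval ran from 2.15 to 3.32, or 4.43-fold to 9.96-fold. It ranked 31 from the top among all genes by change.

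The size of the Lcn2 change differed among lymphomas, with each of the 14 above 1. It was largest in lymphoma 2581, where the level was 10.81 after ADR and 5.27 untreated, a change of 5.54. It was smallest in lymphoma 6054, at 9.88 after ADR and 8.74 untreated, a change of 1.14. Lymphoma 9584, with the highest untreated level, changed by 1.32. Leaving out each lymphoma in turn gave changes from 2.52 to 2.85.

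S100a8 is a small calcium-binding protein of phagocytes that acts as an alarmin once outside the cell. Its level was 3.88 at the lowest, 6.54 at the median and 11.10 at the highest in ADR cultures, against 3.33, 4.16 and 8.79 in untreated cultures. The groups overlapped widely, and 4 ADR cultures lay above every untreated one. S100a8 averaged 7.16 ± 2.38 in ADR and 5.07 ± 1.94 in untreated cultures (SD, n = 14 each). The change was 2.08 ± 0.41 (SE), with an adjusted p of 0.00115 in limma, a 95% interval of 1.21 to 2.95, and an exact sign-flip p of 1.22e-04. A change of at least 1 was seen in 9 lymphomas.

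Untreated S100a8 levels fell into separate ranges. Lymphomas 3594, 6054 and 3769 had 8.79, 8.75 and 7.85, and the other 11 had at most 5.55. After ADR these 3 read 10.61, 8.94 and 10.43, and lymphoma 7050 exceeded them all with 11.10. In 7050 the untreated level was 4.03, so that its change of 7.07 was the largest, followed by 2.86 in 5766 and 2.83 in 403. The smallest change was 0.19, in 6054. Without 7050 the mean change was 1.70 (adjusted p 1.06e-04 in limma), and without 3594, 3769 and 6054 it was 2.24 (adjusted p 0.00641). The spread of S100a8 among untreated lymphomas was larger than that of 99.7% of all genes, and that of Lcn2 larger than that of 99.6%.

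**Figure D1:**
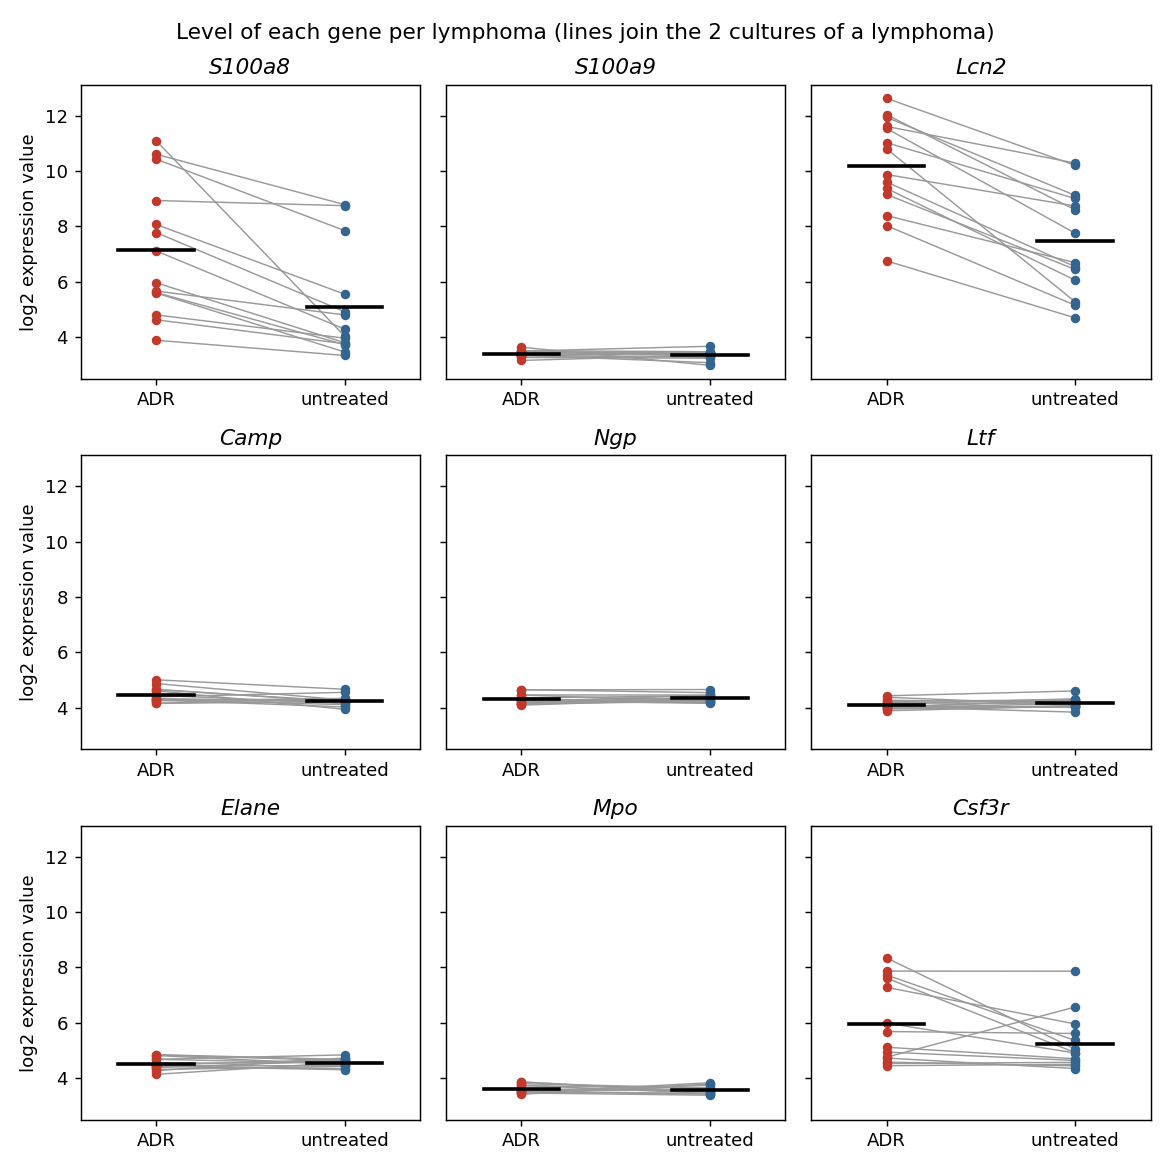
Levels of the 9 genes in log2 units, with ADR cultures on the left and untreated cultures on the right of each panel. Points are single cultures, grey lines join the cultures of a lymphoma and black bars are means over 14 lymphomas. Lcn2 and S100a8 fall along every line from ADR to untreated, Csf3r lines run in both directions, and the other 6 genes lie at 5.00 or lower.

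S100a9 is the binding partner of S100a8. Its level was 3.15 at the lowest, 3.36 at the median and 3.63 at the highest in ADR cultures, against 2.98, 3.40 and 3.67 in untreated cultures. The groups overlapped almost completely, and the SDs were 0.12 in ADR and 0.17 in untreated cultures. The change was 0.04 ± 0.06 (SE), higher in 8 of 14 lymphomas, with an adjusted p of 0.71 in limma. The 95% interval ran from -0.09 to 0.17, which does not reach the lower bound of the S100a8 change. Its mean level was above that of 12.8% of all genes, and it was below the array median in all 28 arrays.

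In lymphoma 7050, where S100a8 changed by 7.07, S100a9 read 3.51 after ADR and 3.47 untreated. Over the 14 lymphomas the changes of S100a8 and S100a9 had a Pearson r of 0.126 (permutation p 0.599) and a Spearman rho of 0.0154 (permutation p 0.964), with adjusted p values of 0.599 and 0.964 over the 2 relations computed. Without 7050 and 6054, the lymphomas farthest from the median S100a8 change, r was 0.203, and within the 11 earlier lymphomas it was 0.144. Untreated levels, the other of the 2 relations, had r = -0.262 (permutation p 0.37, adjusted 0.599) and rho = -0.191 (permutation p 0.51, adjusted 0.964). Without 3594 and 6054, r was -0.643. Untreated S100a8 falls into separate ranges, so the untreated values are a description only. S100a9 stayed at the low end in all 28 arrays, so neither relation can show whether the 2 genes vary together. No array had a high S100a9 value, so how this probe set responds to the transcript was not tested. The S100a8 probe set is of a type (_s_at) that can match transcripts of several genes, and the Lcn2 probe set (_a_at) is of a type that matches several transcripts of a gene.

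**Figure D2:**
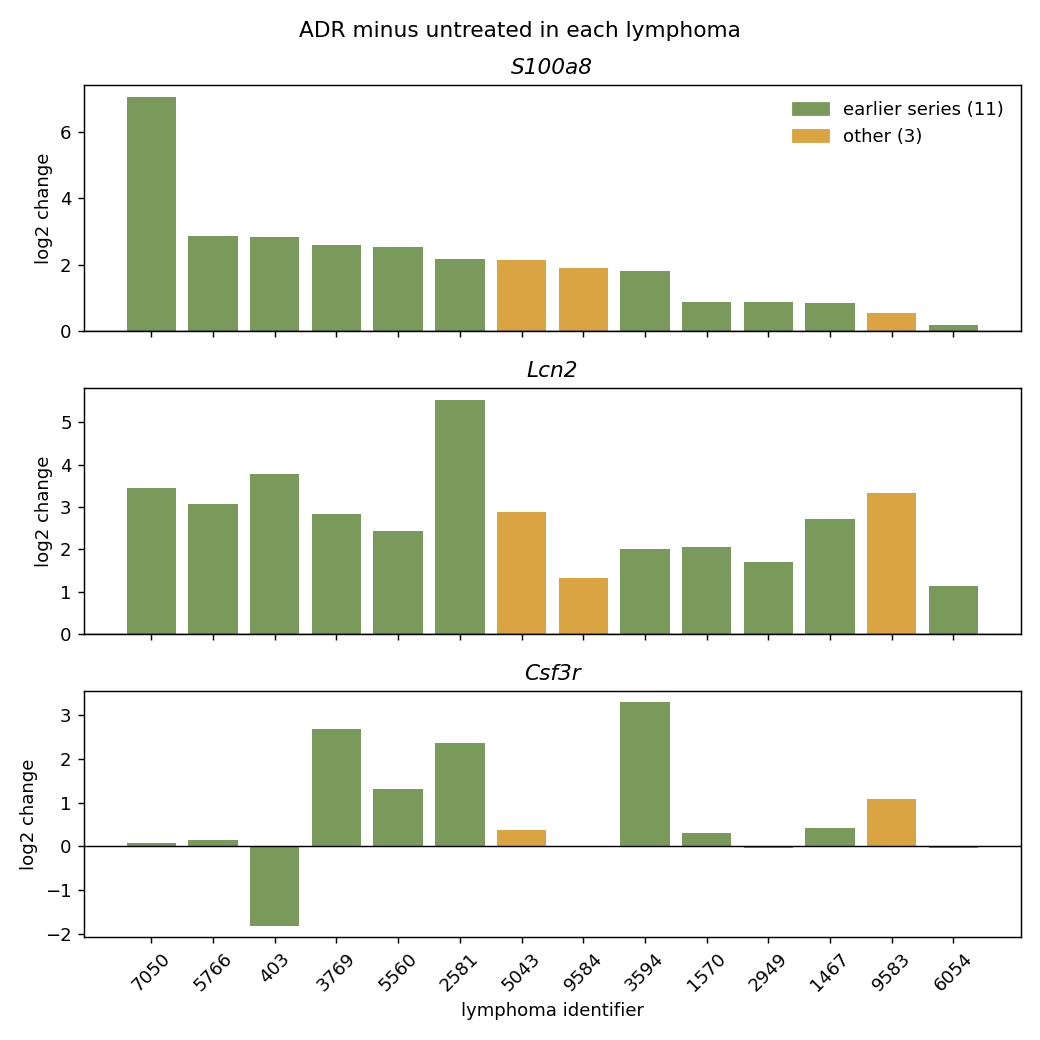
Change of S100a8, Lcn2 and Csf3r in each lymphoma, as the log2 level after ADR minus untreated, with lymphomas ordered by the S100a8 change and coloured by whether the labels place them in the earlier series. S100a8 is led by 7050 at 7.07, Lcn2 by 2581 at 5.54, and Csf3r runs from 3.30 in 3594 to -1.81 in 403.

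Elane (neutrophil elastase) and Mpo (myeloperoxidase) are stored in azurophil granules. Elane ranged from 4.13 to 4.85 in ADR cultures and from 4.30 to 4.84 in untreated cultures, with a change of -0.04 ± 0.07 (SE; adjusted p 0.71 in limma). Mpo ranged from 3.41 to 3.86 in ADR cultures and from 3.38 to 3.83 in untreated cultures, with a change of 0.04 ± 0.06 (adjusted p 0.70). The intervals of the changes ran from -0.18 to 0.10 for Elane and from -0.10 to 0.18 for Mpo, and the groups overlapped for both genes.

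Ltf (lactoferrin, an iron-binding protein), Ngp (neutrophilic granule protein) and Camp (the precursor of the antimicrobial peptide cathelicidin) belong to specific granules. Ltf ranged from 3.88 to 4.42 in ADR and from 3.83 to 4.60 in untreated cultures, with a change of -0.06 ± 0.05 (adjusted p 0.46 in limma). Ngp ranged from 4.09 to 4.64 in ADR and from 4.15 to 4.65 in untreated cultures, with a change of -0.06 ± 0.05 (adjusted p 0.45). Neither gene's interval went past -0.17 or 0.05, and the groups overlapped for both.

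Camp read 4.15 at the lowest, 4.35 at the median and 5.00 at the highest in ADR cultures, against 3.94, 4.22 and 4.66 in untreated cultures. It was higher in 10 of 14 lymphomas, by 0.21 ± 0.07 (SE), with an adjusted p of 0.0463 in limma. The groups overlapped, with 2 ADR cultures above every untreated one. The call was lost when any 1 of 10 lymphomas was left out, and centring each array on its median gave 0.11 (adjusted p 0.25). S100a9, Camp, Ngp, Ltf, Elane and Mpo were each below the array median in all 28 arrays, as were 7135 of all genes. The label of granulocyte granule expression was not borne out by the readings of Camp, Ngp, Ltf, Elane and Mpo in either group. No array had a high value of these genes, so how their probe sets respond to the transcripts was not tested. Lcn2, also stored in specific granules, lay above the array median in 25 of 28 arrays, and granule genes outside the 9 are given below. The 9 genes are called by their names here.

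Csf3r encodes the receptor through which granulocyte colony-stimulating factor acts on precursors and neutrophils. Its level was 4.45 at the lowest, 5.40 at the median and 8.34 at the highest in ADR cultures, against 4.34, 4.91 and 7.86 in untreated cultures. The groups overlapped, with 2 ADR cultures above every untreated one. Csf3r averaged 5.97 ± 1.47 in ADR and 5.24 ± 0.99 in untreated cultures (SD, n = 14 each), a change of 0.73 ± 0.32 (SE) with an adjusted p of 0.11 in limma.

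The Csf3r change was at least 1 in 5 lymphomas. It was 3.30 in 3594 (8.34 after ADR, 5.05 untreated) and 2.69 in 3769 (7.61 and 4.92). Lymphoma 2581 had 7.73 after ADR and 5.36 untreated, and 5560 had 7.28 and 5.96. Lymphoma 403 ran the other way, with 4.75 after ADR and 6.57 untreated, a change of -1.81. Lymphoma 9584 was high in both cultures, at 7.87 after ADR and 7.86 untreated. Without 403 the mean change was 0.92, with an adjusted p of 0.0277 in limma. Without 403 and 5560 it was 0.89 (adjusted p 0.0489), and without 403, 5560 and 1570 it was 0.94 and not called (adjusted p 0.0556).

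The order of mean levels, which compares different probe sets and so is a description only, put Lcn2 above 84.5% of all genes, S100a8 above 52.8% and Csf3r above 47.5%. Lcn2 lay above the array median in 25 of 28 arrays, S100a8 in 11 and Csf3r in 9. With 1 array per culture, the order of neighbouring lymphomas has no error of its own. The SDs of the 6 low genes, between 0.12 and 0.26 in ADR cultures, show how much low readings varied among cultures.

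The changes did not differ detectably between the 11 earlier lymphomas and the other 3. S100a8 changed by 2.24 ± 1.85 in the 11 and 1.52 ± 0.85 in the 3 (SD), a difference of 0.71 ± 1.01 (SE; exact permutation p 0.497). Lcn2 changed by 2.79 ± 1.19 in the 11 and 2.51 ± 1.05 in the 3 (exact permutation p 0.706). Untreated S100a8 averaged 5.50 ± 1.99 in the 11 and 3.51 ± 0.20 in the 3 (exact permutation p 0.0962), the 3 lymphomas with high levels all being among the 11. None of the 9 genes was called in either comparison by limma, where 0.0055% of all genes were called for the change (1 gene) and 0% for the untreated level (999 and 1084 genes had an unadjusted p under 0.05). With 3 against 11, the smallest exact p is 0.00275.

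Other neutrophil genes included some at the low end of the scale, some that rose and some that fell. Of 6 measured azurophil and precursor genes, 0 were called higher and 2 lower, against 15.3% and 13.4% of all genes. The list's median change was -0.18. Gfi1, a repressor needed for granulocyte development, averaged 5.26 in ADR and 6.45 in untreated cultures and fell by 1.19 ± 0.29 (SE; adjusted p 0.00579 in limma). Gfi1 lay above the array median in 15 of 28 arrays. Cebpa, a factor that starts the granulocyte programme, fell by 0.31 ± 0.11 (adjusted p 0.0473 in limma) from a low level. It was below the array median in all 28 arrays. Which cells of the cultures carried Gfi1 and Cebpa was not tested. Prtn3 (proteinase 3) was not called, at a change of -0.44 ± 0.24, with ADR levels of 4.57 in 9584 and 4.45 in 5560 against untreated levels of 7.51 in 9584 and 6.68 in 5560.

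Of 10 specific and gelatinase granule genes, 5 were called higher and 1 lower, against 15.3% and 13.4% of all genes. The list's median change was 0.68. Mmp8 (neutrophil collagenase) rose by 2.51 ± 0.39 (SE; adjusted p 1.71e-04 in limma), Adam8 by 2.07 ± 0.19 (adjusted p 3.54e-06) and Lyz2 (lysozyme) by 1.99 ± 0.31. Mmp9 (gelatinase B) rose by 1.74 ± 0.23 and Hp (haptoglobin) by 1.26 ± 0.31. Each of these 5 is also expressed by macrophages or other cells. Pglyrp1, a bacterial wall-binding granule protein, fell by 0.24 ± 0.08 (adjusted p 0.0315 in limma) and was below the array median in all 28 arrays. Chil3, Olfm4, Cd177 and Itgb2l changed by between -0.02 and 0.11 and were not called.

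Of 9 mature neutrophil surface and cytosol genes, 4 were called higher and 1 lower, against 15.3% and 13.4% of all genes. The list's median change was 0.07. The lectin receptors Clec4d and Clec4e rose by 2.90 ± 0.22 (SE) and 2.22 ± 0.26, the formyl peptide receptor Fpr2 by 2.04 ± 0.42, and the amplifying receptor Trem1 by 0.89 ± 0.15, all at an adjusted p of 0.00168 or lower in limma. Padi4, the enzyme that citrullinates histones in neutrophils, averaged 4.27 in ADR and 5.03 in untreated cultures and fell by 0.77 ± 0.23 (adjusted p 0.0197). The chemokine receptor Cxcr2 (0.07), Stfa2l1 (0.07), Mcemp1 (-0.06) and the decoy receptor Il1r2 (-0.31) were not called. Il1r2 was high in lymphoma 1467, at 7.43 after ADR and 10.39 untreated. Over the 3 neutrophil lists, 11 of 25 measured genes were below the array median in all 28 arrays, as were 7135 of all 18194 genes. Of those 11 genes 0 were called higher and 2 lower (Cebpa and Pglyrp1). The shares of 15.3% and 13.4% are over genes at any level, and those among low genes alone are not given here. Ly6g, Fpr1, Retnlg, Stfa1, Stfa2, Mmp25, Prss57 and Cebpe were not analysed here, having no probe set of a single gene.

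**Figure D3:**
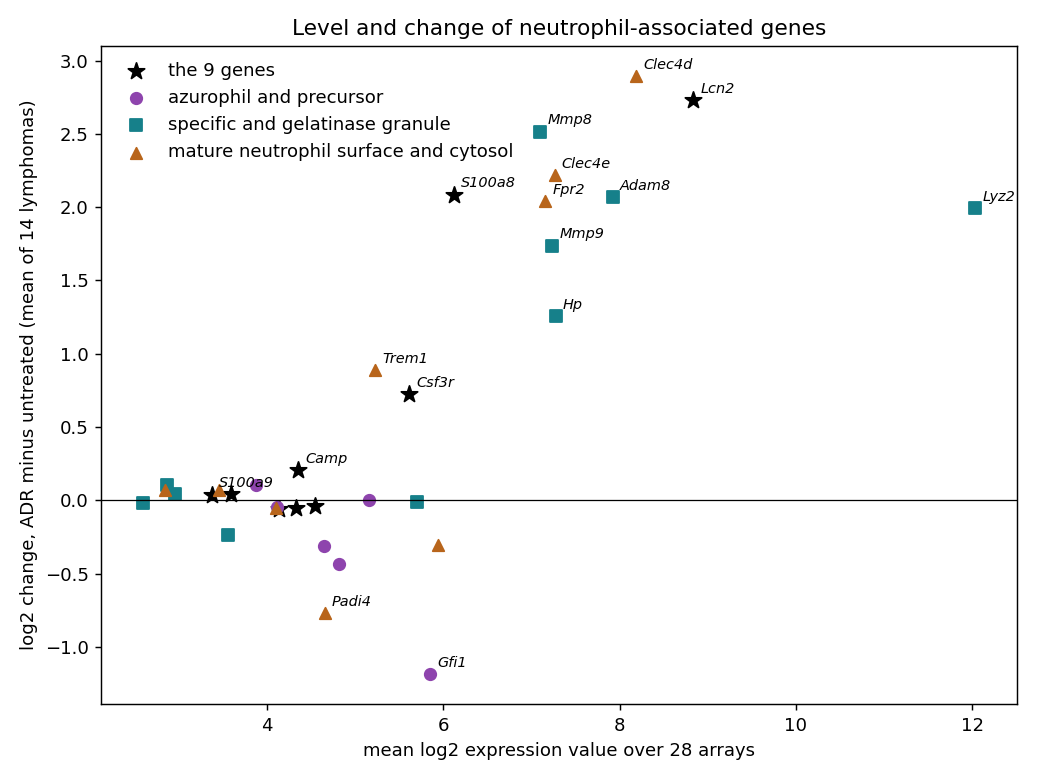
Mean level over 28 arrays (log2, horizontal) and mean change, ADR minus untreated over 14 lymphomas (log2, vertical), of the 9 genes (stars) and of 3 lists of neutrophil genes (circles, squares and triangles). Genes below a level of 5 lie near or below 0, while Lcn2 at 2.73 and S100a8 at 2.08 lie near Clec4d at 2.90 and Adam8 at 2.07.

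Other S100 genes were measured with S100a8 and S100a9. Of 10, 6 were called higher and 0 lower, against 15.3% and 13.4% of all genes, with a median change of 0.42. S100a4 rose by 1.76 ± 0.22 (SE; adjusted p 2.81e-05 in limma), S100a6 by 1.58 ± 0.24 and S100a10 by 0.65 ± 0.11. Of the 5 genes for alarmin receptors, 3 were called higher and 0 lower, with a median of 1.13. Cd14, Ly96 and Tlr4, which together form the receptor complex for bacterial lipopolysaccharide, rose by 2.11 ± 0.22, 1.22 ± 0.15 and 1.13 ± 0.19. Ager and Bsg, other proteins reported to bind S100 alarmins, changed by 0.04 and 0.05 and were not called.

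Of 9 genes around the G-CSF receptor, 7 were called higher and 0 lower, against 15.3% and 13.4% of all genes. The list's median change was 1.11. Csf3, the ligand of Csf3r, averaged 5.66 ± 1.49 in ADR and 4.54 ± 0.35 in untreated cultures (SD) and was higher in 13 of 14 lymphomas, by 1.12 ± 0.34 (SE; adjusted p 0.0200 in limma). The highest Csf3 levels were 9.21, 8.07 and 7.44 in the ADR cultures of 403, 5560 and 7050, where the untreated cultures had 4.34, 5.63 and 4.46. In 403, 5560 and 7050 the Csf3r change was -1.81, 1.32 and 0.07. The fibroblast marker mean after ADR was 8.65 in both 403 and 5560, the highest of the ADR cultures, and 6.11 in 7050. How ligand level, receptor level and feeder cells relate was not tested. Csf3r was also lower after ADR in 2949 and 6054, with changes of -0.05 and -0.04. Csf2rb2 and Csf2rb, receptor chains for related cytokines, rose by 1.71 ± 0.22 and 1.19 ± 0.14, and the macrophage growth factor Csf1 by 1.67 ± 0.21. Jak2 (0.32) and Stat3 (0.12), which carry the receptor signal, were not called.

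Of 7 genes tied to Lcn2, 5 were called higher and 1 lower, against 15.3% and 13.4% of all genes, with a median of 1.37. The cytokines Il6 and Il1b, known inducers of Lcn2, rose by 2.04 ± 0.30 (SE) and 1.96 ± 0.31. The transcription factors Cebpd and Cebpb rose by 1.71 ± 0.17 and 1.37 ± 0.13 (adjusted p 4.62e-06 and 4.70e-06 in limma), and Nfkbiz, a nuclear partner of NF-kB, by 0.58 ± 0.17. The interleukin 17 receptor Il17ra fell by 0.32 ± 0.11. Slc22a17, a receptor for Lcn2, changed by -0.10 and was not called.

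Across the 28 arrays, S100a8 and Lcn2 levels correlated at r = 0.683, Lcn2 and Csf3r at 0.628, and S100a8 and Csf3r at 0.237. S100a8 and S100a9 correlated at 0.0027, and S100a9 ranked 8778 among all genes by its r with S100a8. These correlations describe arrays that share treatment and lymphoma. S100a9 was low in all 28 arrays, so its r cannot show whether it varies with S100a8. The genes most like S100a8 in level were Mmp9 (r = 0.913), Stfa3 (0.912), a stefin, the chemokine receptor Ccr1 (0.844), Cd300lf (0.839) and Ifitm6 (0.838). Those most like Lcn2 were the lysosomal proteases Ctsb (0.936) and Ctsd (0.932), the ferritin heavy chain Fth1 (0.928), Ms4a6d (0.917) and the acute-phase protein Saa3 (0.913). Those most like Csf3r were Nfam1 (0.896), the transcription factor Spic (0.887), Gpr31b (0.870), Saa1 (0.868) and Slfn5 (0.859).

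Markers of other cell types moved with ADR as well. The mean level of the 11 macrophage markers ran from 5.78 to 9.38 over ADR cultures and from 4.99 to 8.43 over untreated cultures (summed level 63.5 to 103 and 54.9 to 92.8). Among its members, Adgre1 and Csf1r rose by 2.21 and 1.84, while Mrc1 was below the array median in all 28 arrays and C1qa, C1qb and C1qc were not called. The mean level of the 11 fibroblast markers ran from 4.76 to 8.65 over ADR and from 4.26 to 5.16 over untreated cultures (summed level 52.4 to 95.2 and 46.9 to 56.8). Pdgfrb was below the array median in all 28 arrays. Of 8 B-lineage markers 0 were called higher and 5 lower, against 15.3% and 13.4% of all genes. Their median change was -0.64, and their summed level was 55.4 to 78.2 in ADR and 66.2 to 77.5 in untreated cultures.

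The part of these cell types in the changes of S100a8, Lcn2 and Csf3r was not tested. Over the 14 lymphomas, 9 relations of changes were computed after the data had been seen. The Csf3r change followed the macrophage marker change at r = 0.709 (permutation p 0.00507, adjusted 0.0456) and rho = 0.855 (permutation p 2.2e-04, adjusted 0.00198). It was 0.741 without 2581 and 2949 and 0.714 within the 11 earlier lymphomas. The Lcn2 change and the macrophage marker change had r = 0.632 (permutation p 0.0227, adjusted 0.102) and rho = 0.297 (permutation p 0.303, adjusted 0.533), and r was 0.0713 without 2581 and 2949, so that relation rests on those lymphomas. Within the 11 it was 0.634.

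The S100a8 change and the macrophage marker change had r = -0.115 (permutation p 0.658, adjusted 0.740) and rho = 0.0462 (permutation p 0.880). In 7050, with the largest S100a8 change, the macrophage marker mean was 7.89 after ADR and 7.50 untreated, but single markers went opposite ways. Fcgr1 read 10.57 after ADR and 7.20 untreated, Mpeg1 12.46 and 10.06, and Csf1r 11.70 and 9.47. C1qb read 4.38 after ADR and 7.54 untreated, Marco 7.44 and 9.80, and C1qc 3.96 and 5.71. In 9584 the untreated macrophage marker mean was the highest of all untreated cultures at 8.43, while S100a8 was 3.73 there. With the fibroblast marker change, S100a8 had r = 0.358 (adjusted permutation p 0.383) and rho = 0.556 (adjusted 0.125), and Lcn2 had r = 0.386 (adjusted 0.383) and rho = 0.385 (adjusted 0.395). Csf3r and fibroblast markers had r = 0.179 (adjusted permutation p 0.740), and r was 0.724 without 403 and 5560. The changes of Lcn2 and S100a8 themselves had r = 0.380 (adjusted permutation p 0.383) and rho = 0.578 (adjusted 0.125), and those of Csf3r had r = 0.149 with Lcn2 and -0.07 with S100a8.

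**Figure D4:**
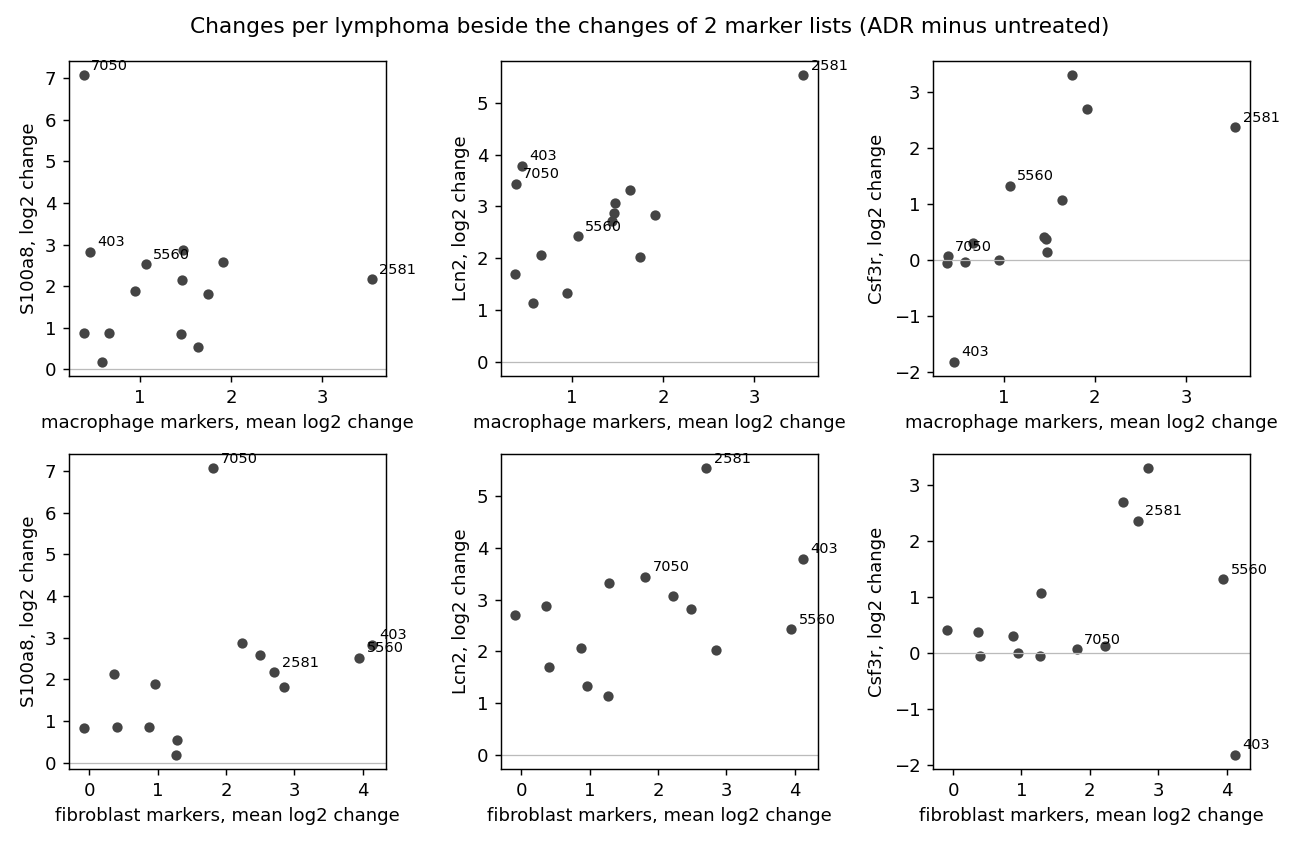
Change per lymphoma (log2, ADR minus untreated) of S100a8, Lcn2 and Csf3r against the mean change of the macrophage markers (upper row) and fibroblast markers (lower row), 1 point per lymphoma with 4 lymphomas named. The point of 7050 lies high for S100a8 at a small change of the macrophage marker mean, in which single markers went opposite ways, that of 2581 stands to the right of all others in the upper row, and that of 403 is the lowest for Csf3r.

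Calls in the other marker lists are given beside the shares over all genes, of which 15.3% were called higher and 13.4% lower. Of 8 T and NK cell markers 0 were higher and 1 was lower (median -0.04), of 4 erythroid markers 0 were called (median 0.08), and of 4 mast cell and basophil markers 0 were called (median -0.0012). Of 4 eosinophil markers Siglecf alone was called, at 1.01 (list median -0.05). Of 4 megakaryocyte markers Ppbp and Pf4 were called higher (0.92 and 0.36, list median 0.27), and of 4 dendritic cell markers Itgax was called, at 0.31 (list median 0.05).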

How the data were processed

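RNA from 28 cultures (14 lymphomas, ADR and untreated) was measured on Affymetrix mouse arrays, with 1 array per culture. The deposited values are log2 expression values of 45101 probe sets, made by the authors with RMA and Partek 6.5, per the submitters' processing notes. RMA subtracts background, makes the arrays' distributions alike and combines the probes of a set into 1 value, in which changes of dim genes are compressed. A build for the array is not given in the sources used here. The coordinates printed come from the RefSeq promoter table (GRCm38.p6).

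The annotation supplied for the array gave 34945 probe sets 1 gene, 932 several and 9160 none, and 64 were controls. The probe set with the highest mean was used for each of 18194 genes. Changes (ADR minus untreated) were fitted by lmFit and eBayes of limma 3.58.1 (R 4.3.3), with lymphoma as a block and Benjamini-Hochberg adjustment over all genes at 0.05. The fit was tested on simulated data. Exact sign-flip tests used all 16384 flips, and correlations used 100000 permutations. With lymphoma as a block, p-values set the mean change against the spread of the changes between lymphomas. The number of arrays limits the precision.

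The labels give the lymphoma of each array, which pairs the arrays. Deviations from the group means correlated at r from 0.271 to 0.615 (median 0.483) within lymphomas and at a median of -0.0785 between them. In 10 of 14 lymphomas each array was the other's best match.

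The 9 genes and all lists (azurophil and precursor, specific and gelatinase granule, mature neutrophil, other S100, alarmin receptors, G-CSF axis, Lcn2 induction and receptor, and markers of other cell types) were chosen with earlier results of these data known. Named from each list were up to 3 called genes with the largest change and genes whose untreated SD was above 1. Further genes of these lists were named after their values were seen. For each of the 9 genes spanning at least 2 log2 units, the 5 genes with the most similar level were named. The marker lists of other cell types are summarised by counts, with single genes named after their values were seen. Alternatives covered the block, the probe set rule, a level filter, the scaling, the variance model, array weights and lymphomas left out.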

Additional observations from a re-analysis of the deposited data

How the results depend on the processing

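Lcn2 and S100a8 kept their direction under every alternative run. Leaving out 1 lymphoma in turn gave 2 to 3 called genes of the 9 and 4501 to 5434 called genes in all. It gave S100a8 changes of 1.70 to 2.23 (limma adjusted p at most 0.00315) and Lcn2 changes of 2.52 to 2.85 (at most 2.60e-05). With no replicate block, 1 of the 9 genes was called (Lcn2), and S100a8 changed by 2.08 with an adjusted p of 0.0609. With a random replicate block, 3 were called. In the 3 lymphomas outside the earlier series, 0 of the 9 genes and 1 gene in all were called, with changes of 1.52 for S100a8 (adjusted p 0.153) and 2.51 for Lcn2 (0.106); this fit has 3 pairs. The Camp call was lost without any 1 of 10 lymphomas, with no replicate block, with the probe set of largest variance, with both other scalings, with array weights and in each subset of lymphomas except the 11 earlier ones. Camp has 1 probe set, so the probe set rule left its change at 0.21 and moved only its p values (adjusted p 0.0502 in limma). Csf3r was called without 403 (0.92) and without 403 and 5560 (0.89, adjusted p 0.0489), but not without 403, 5560 and 1570 (0.94, adjusted p 0.0556). Centring arrays on their median gave 2007 higher and 4210 lower genes, against 2790 and 2435, and called Ngp lower (-0.15, adjusted p 0.0315).

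Changes near 0 turned sign. S100a9 gave -0.0598 with arrays centred on the median, -0.0085 to 0.0569 with 1 lymphoma left out, -0.0115 without 403 and 5560, -1.03e-04 without 403, 5560 and 1570, and -0.0244 in the 3 other lymphomas. Mpo gave -0.0576 with centring and -0.143 in the 3 others. Ngp gave 0.0416 and Elane 0.109 in the 3 others, and Elane gave 0.0104 without 3594, 3769 and 6054. None of these values passed the test. S100a8 and S100a9 have 1 probe set each, so using every probe set gives no other relation between them. The subsets of 3 lymphomas, the exclusion of 3594, 3769 and 6054, and that of 403, 5560 and 1570 were chosen after the data were seen.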
